A study of Rattus norvegicus with 12 samples.

Results

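Akr1c3 and Srd5a1 encode reductases that take progesterone (P4) out of its active form, and their transcripts were followed in the corpus luteum (CL) of pregnant rats. They were taken as the rows whose annotated gene symbol was either name, out of 14506 genes that had 1 symbol on the array. Of the 2 genes, Akr1c3 was read by 1 probe set, and Srd5a1, which has 0 probe sets under its symbol here, was not analysed here. The pair was selected on measured values of these arrays, namely the group levels of Akr1c3, so the level of Akr1c3 in each group and its differences between groups are given as a description, with no test. Other genes were tested with limma across all 14506 genes, with p values adjusted over all of them by the method of Benjamini and Hochberg, and a gene is said to have risen or fallen where its adjusted p was under 0.05.

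Luteal RNA of Wistar rats was hybridised to 12 Affymetrix Rat Gene arrays, 1 rat per array and 3 rats in each of 4 groups. In the AI+E2 group, rats received anastrozole, which blocks the aromatase that makes estradiol (E2), orally at 1 mg/kg of body weight per day for 4 days from day 12 of pregnancy, together with subcutaneous E2 at 10 µg per day. The AI group received anastrozole alone and the VEH group the vehicle, and CL of these 3 groups were taken on day 16, after 96 h. The fourth group was untreated and sampled on day 12, so in VEH versus day 12 the day of pregnancy and the vehicle dosing cannot be told apart. In AI and AI+E2 versus day 12 the day of pregnancy, the dosing and the drugs cannot be told apart. All animals were pregnant at day 12 and carried no transgene or deletion that the labels name. The paper reports lighter CL and signs of implantation loss in a pilot with this anastrozole dose. Whether implantations were lost in the rats of these arrays is not given, and a part of such loss in the level of Akr1c3 was not tested. Anastrozole was given to the whole animal, so aromatase outside the ovary was exposed as well, and the injected E2 did not come from the CL. The values are log2 intensities after RMA, a method that removes background, brings all arrays to a common distribution and gives 1 value per probe set, so that a difference of 1 is a 2-fold change. Levels of different genes cannot be compared on this scale, because each probe set binds with its own efficiency.

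Akr1c3 is the present rat symbol of 20α-hydroxysteroid dehydrogenase, formerly Akr1c18, which reduces P4 to 20α-dihydroprogesterone, a steroid that binds the P4 receptor weakly. In the rat CL the enzyme is held low through most of pregnancy by prolactin and placental lactogens acting through the prolactin receptor and STAT5, and it is induced before parturition, when prostaglandin F2α (PGF2α) acts on the CL through the orphan nuclear receptor Nur77, the product of Nr4a1. Srd5a1 encodes steroid 5α-reductase, which opens a second route from P4, to 5α-reduced pregnanes, on which the 3α-hydroxysteroid dehydrogenase Akr1c14 then acts.

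Akr1c3 lies on chromosome 17 among other genes of the aldo-keto reductase family 1 (AKR1). Because the regulators named above act on transcription, the 250 bases before its start are shown, from RefSeq on GRCr8, chr17:71020634-71020883 on the plus strand, read 5′ to 3′. Capitals mark matches to the motifs searched.
Akr1c3, 250 bases upstream: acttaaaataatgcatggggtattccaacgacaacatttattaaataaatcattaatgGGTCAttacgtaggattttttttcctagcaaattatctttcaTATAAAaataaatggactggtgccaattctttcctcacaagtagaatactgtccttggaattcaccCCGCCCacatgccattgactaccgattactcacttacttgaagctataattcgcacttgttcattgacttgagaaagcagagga
The 6 motifs were searched on both strands of these bases and of the same 250 bases before 33469 rat gene starts. Nur77 binds AAAGGTCA as a single molecule, a sequence with 0 matches here and a match in 1.24% of all promoters. Its core, GGTCA, which other nuclear receptors also bind, was matched once, 192 bases before the start, and occurs in 35.4% of promoters. The STAT motif TTCNNNGAA had 0 matches (7.67% of promoters hold one), as had the AP-1 motif TGANTCA (6.34%). A GC box, GGGCGG, bound by Sp1, was matched on the minus strand 84 bases before the start (30.5% of promoters), and TATAAA was matched 150 bases before it (12.9%). A match is a run of letters and not a measured binding site, and a motif without one may lie outside these bases.

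Akr1c3 was highest in the AI+E2 group, at 10.70, 10.56 and 10.83. The AI arrays lay at 7.76, 8.10 and 8.67. The lowest values were those of VEH rats on day 16, at 6.23, 6.63 and 6.79, against 8.98, 9.95 and 8.96 on day 12. No array of any group overlapped another group, so the order of the groups was AI+E2, day 12, AI and VEH, and it held for every array. The mean was 10.69 ± 0.136 in AI+E2, 8.18 ± 0.456 in AI, 6.55 ± 0.288 in VEH and 9.29 ± 0.567 on day 12 (SD, n = 3 each). The closest neighbours in this order were AI and day 12, where the highest AI array lay 0.29 below the lowest array of day 12.

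**Figure D1:**
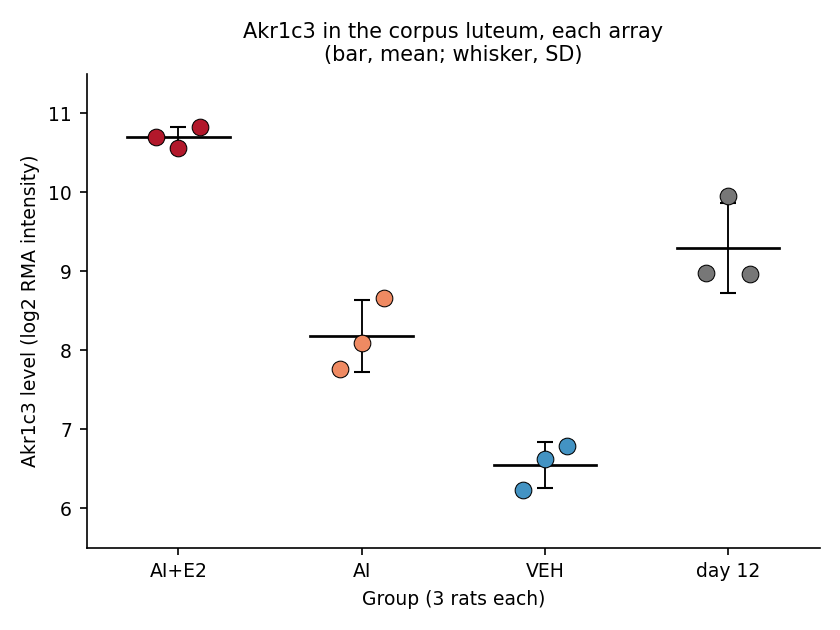
Level of Akr1c3 (log2 RMA intensity, vertical axis) on each of the 12 arrays, by group, with a bar at the group mean and a whisker of 1 SD (n = 3 rats). The AI+E2 arrays lie between 10.56 and 10.83 and the VEH arrays between 6.23 and 6.79, with AI and day 12 between them.

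Between AI+E2 and VEH the difference was 4.14 ± 0.244 on the log2 scale (SE), a 17.7-fold higher level in AI+E2, and it ranked 1 among all 14506 genes in either direction. Between AI+E2 and AI it was 2.52, or 5.72-fold, and ranked 4 among rises. The 3 genes above it, named after their values were seen, were Csn1s1, a milk casein, at 4.11, Phex at 2.67 and Glod5 at 2.64. Between AI and VEH it was 1.63, or 3.09-fold, and ranked 28 among rises.

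Akr1c3 was thus higher with the inhibitor than with vehicle, and higher again when E2 was injected beside the inhibitor. Groups without overlap in the direction of Akr1c3 were common on these arrays, at 13.6% of genes for AI+E2 versus VEH, 16.4% for AI+E2 versus AI and 14.3% for AI versus VEH. The nearest arrays of the paired groups were 3.77, 1.89 and 0.98 apart for Akr1c3 in these comparisons.

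VEH rats on day 16 had 6.71-fold less Akr1c3 transcript than rats on day 12, a log2 difference of -2.75 ± 0.244 (SE), and among falls it ranked 2, after Idi1, an isoprenoid enzyme named after its value was seen, at -2.76. In this comparison 11.8% of genes had VEH arrays all below the day 12 arrays. Rats given AI were lower than day 12 rats by 2.17-fold, a difference of -1.12, which ranked 7 among falls (11.6% of genes had AI arrays all below). With AI+E2 the level exceeded that of day 12 by 1.40, or 2.64-fold, and ranked 15 among rises (14% of genes had AI+E2 arrays all above). The comparisons share arrays with each other and are not independent.

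Rats of 1 group also differed from each other in Akr1c3 more than in most transcripts. Its SD within groups was 0.397, against a median of 0.0895 over all genes, and 99.8% of genes had a lower one. The widest group was day 12, where 1 rat stood at 9.95 and the others at 8.96 and 8.98. Over the 12 arrays Akr1c3 spanned 4.60, a range that only Csn1s1, at 4.80, and Cyp17a1, at 4.71, exceeded.

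Akr1c3 has close relatives whose transcripts can share its probes, and probe sequences were not used here, so its values may contain signal of a relative. The RefSeq gene order on chromosome 17 places it among 11 neighbouring AKR1 genes, of which 8 were measured, namely Akr1e2, Akr1c2, Akr1c1, Akr1c19, Akr1c12, Akr1c3 itself, Akr1c14 and Akr1c15. With members elsewhere in the genome, 13 relatives were measured. In the comparisons of AI+E2, AI and VEH with each other and of VEH with day 12, the differences of these 13 relatives lay between -0.53 and 0.90, with SE between 0.0566 and 0.106.

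In AI+E2 versus AI, 6 of the 13 relatives rose (8.65% of all genes did) and 1 fell (4.13% of all genes), and their median difference was 0.22, against -0.022 over all genes. Akr1e2, an anhydrofructose reductase in mice, stood at 7.39, 7.20 and 7.34 in AI+E2 against 6.31, 6.61 and 6.31 in AI and rose by 0.90 (SE 0.105, adjusted p = 2.47e-05). The arrays of Akr1e2 did not overlap between these groups. Akr1b7, which in rodent steroidogenic cells detoxifies the aldehyde left by side-chain cleavage of cholesterol, stood at 7.15, 7.01 and 7.37 in AI+E2 against 6.53, 6.60 and 6.49 in AI and rose by 0.64 (SE 0.08, adjusted p = 5.37e-05). Akr1b1, the aldose reductase, rose by 0.44, Akr1c19 by 0.33, Akr1c15 by 0.32 and the aldehyde reductase Akr1a1 by 0.22. The single fall was that of Akr1b8, an aldose reductase-like protein, at -0.51 (adjusted p = 0.0019). Of these calls, that of Akr1a1 was lost when any of 4 arrays, AI 1 or 3 or AI+E2 1 or 3, was left out, and that of Akr1b1 without AI array 1, with adjusted p values of up to 0.127 and 0.0648.

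**Figure D2:**
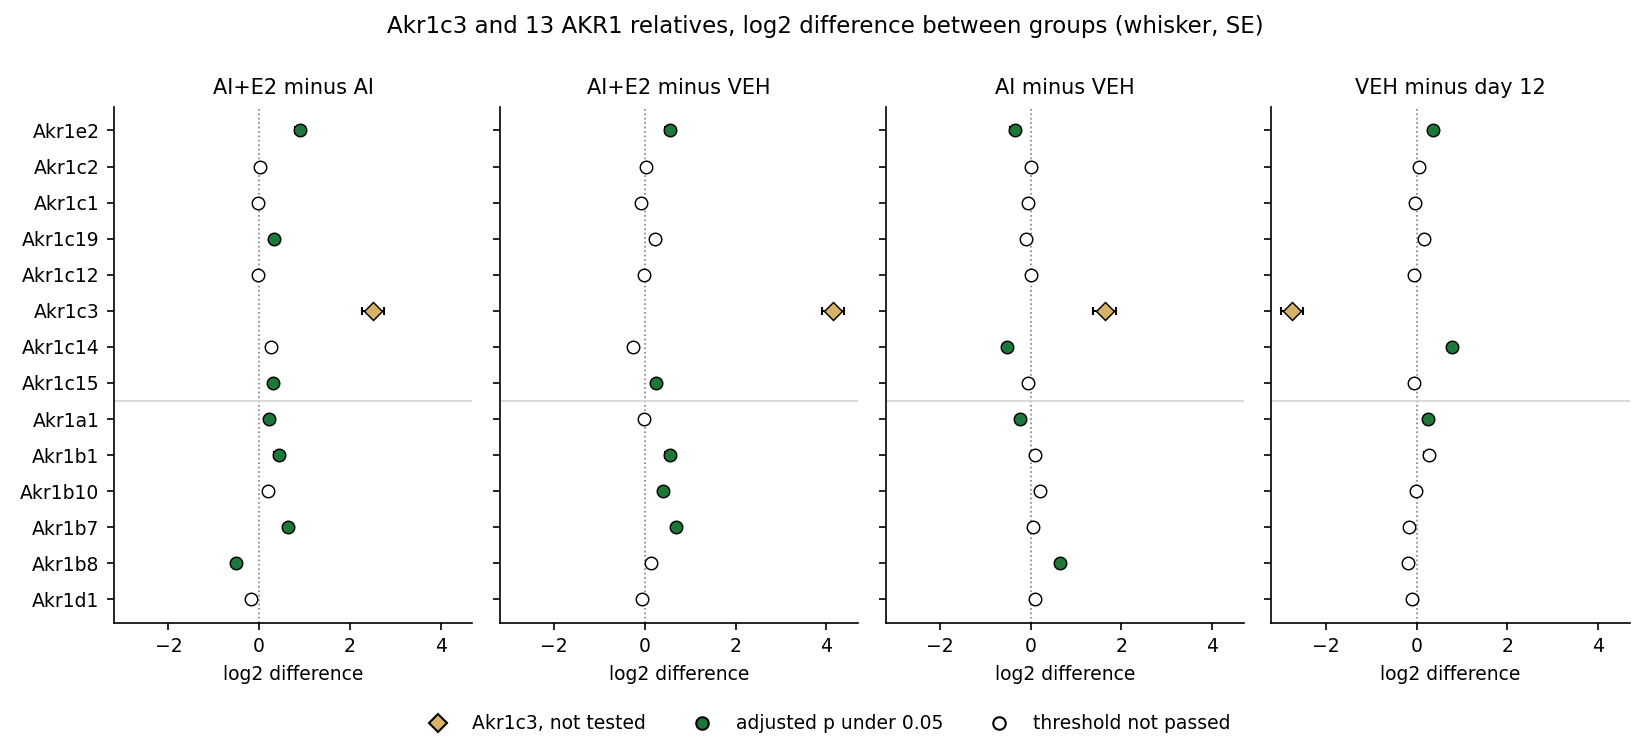
Log2 difference (horizontal axes, whisker 1 SE) of Akr1c3 and its 13 measured AKR1 relatives in 4 comparisons, with genes of the chromosome 17 cluster in gene order above the grey line and other relatives below it. Diamonds are Akr1c3, not tested, filled circles passed the adjusted p threshold and open circles did not. The relatives stay between -0.53 and 0.90, while Akr1c3 runs between -2.75 and 4.14. Akr1c1, Akr1c2, Akr1c12, Akr1c19 and Akr1d1 were dim, with every group mean below the array medians.

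Compared with VEH, AI+E2 rats had 5 relatives that rose (6.11% of all genes) and 0 that fell (6.9% of all genes), with a median of 0.14 against -0.0064 over all genes. These were Akr1b7 at 0.69, Akr1e2 at 0.55, Akr1b1 at 0.55, Akr1b10, a retinal reductase in humans, at 0.41, and Akr1c15 at 0.25, the last lost without AI+E2 array 2 (adjusted p = 0.0506). In AI versus VEH, 1 relative rose (5.91% of all genes) and 3 fell (11% of all genes), with a median of 0.0036 against 0.013 over all genes. Akr1b8 rose by 0.65, with 6.66, 6.76 and 6.91 in AI against 6.02, 6.003 and 6.33 in VEH (adjusted p = 0.000159). Akr1c14, the 3α-hydroxysteroid dehydrogenase next to Akr1c3, stood at 8.63, 8.69 and 8.87 in AI against 9.33, 9.26 and 9.19 in VEH, a fall of -0.53 (SE 0.0917, adjusted p = 0.000726). Akr1e2 fell by 0.35 and Akr1a1 by 0.24, and both calls were lost in some fits with 1 array left out, Akr1e2 without AI 1 or 3 or VEH 2 or 3 and Akr1a1 without AI 3 or VEH 1.

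In VEH on day 16 versus day 12, 3 relatives rose (6.91% of all genes) and 0 fell (3.23% of all genes), and their median of -0.018 was that of all genes. Akr1c14 stood at 9.33, 9.26 and 9.19 in VEH against 8.31, 8.47 and 8.63 on day 12 and rose by 0.79 (adjusted p = 5.06e-05), so that in this comparison and in AI versus VEH its differences had the sign opposite to those of its neighbour Akr1c3. Akr1e2 rose by 0.37 and Akr1a1 by 0.25, and both were lost without single arrays, Akr1e2 without VEH 2 or 3 or day 12 array 1 or 2 and Akr1a1 without VEH 1 or 2 or day 12 array 1 or 2. The neighbours Akr1c1, Akr1c2 and Akr1c12 and the steroid 5β-reductase Akr1d1 passed in none of these 4 comparisons, and their differences lay between -0.17 and 0.10. Over the 12 arrays, the relatives with the highest Pearson r to Akr1c3 were Akr1b7 at 0.82 and Akr1c15 at 0.73, and Akr1c14 had -0.37. These 12 points share their arrays, and the 4 groups set most of the spread.

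**Figure D3:**
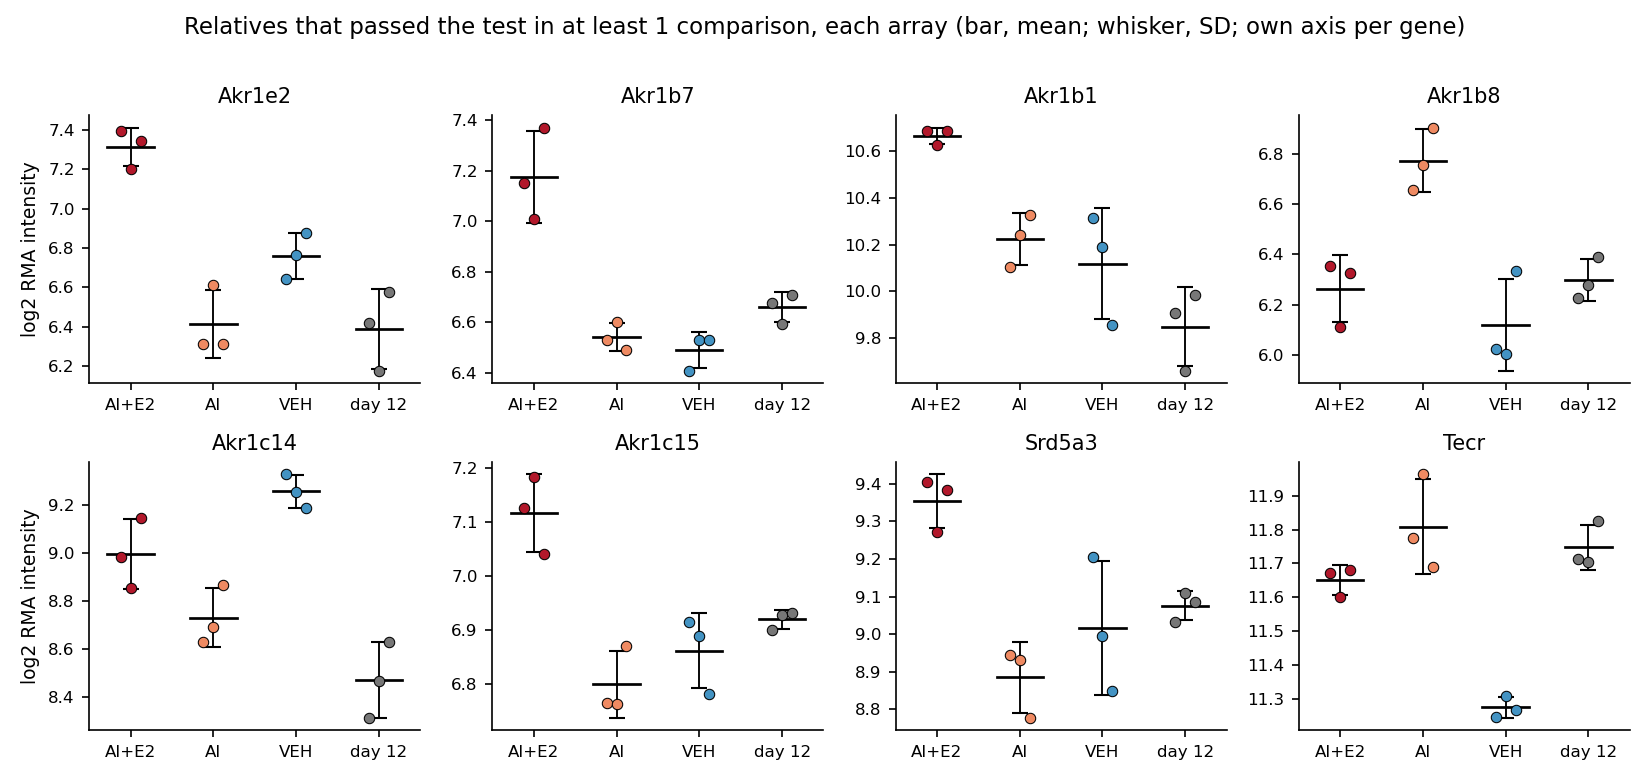
Levels (log2 RMA intensity, own axis per gene) of 8 relatives of the reductases on each array, by group, with a bar at the mean and a whisker of 1 SD (n = 3 rats). Akr1e2 and Akr1b7 lie highest in AI+E2, Akr1b8 in AI and Akr1c14 in VEH.

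Of the 5α-reductase family, 3 of 4 listed relatives of Srd5a1 were measured, and Srd5a2 was not analysed here. Srd5a3, a polyprenol reductase of the dolichol pathway, stood at 9.41, 9.27 and 9.38 in AI+E2, against 8.95, 8.93 and 8.78 in AI and 9.20, 8.996 and 8.85 in VEH. It rose by 0.47 relative to AI (SE 0.0813, adjusted p = 0.00102) and by 0.34 relative to VEH, the second lost without AI+E2 array 1 (adjusted p = 0.0582) or VEH array 3 (adjusted p = 0.0551). Tecr, the last enzyme of very long chain fatty acid elongation, rose by 0.53 in AI versus VEH (adjusted p = 4.95e-05) and by 0.38 in AI+E2 versus VEH, and fell by 0.47 in VEH versus day 12. Tecrl passed in none of the 4 comparisons. The roles given here for Srd5a3 and Tecr are on lipids other than P4, and an action of either on P4 was not measured.

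Prolactin signalling, which keeps 20α-hydroxysteroid dehydrogenase low in the rat CL, was covered by a list of 14 genes that also holds genes of LH signalling, all measured. In AI+E2 versus AI 2 rose (8.65% of all genes did) and 0 fell (4.13%), and in AI+E2 versus VEH 5 rose (6.11%) and 4 fell (6.9%). In AI versus VEH 2 rose (5.91%) and 4 fell (11%), and in VEH versus day 12 2 rose (6.91%) and 1 fell (3.23%). Their median differences, -0.027, -0.029, 0.04 and 0.0008 in that order, lay beside medians over all genes of -0.022, -0.0064, 0.013 and -0.018.

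Prlr, the prolactin receptor, stood at 10.74, 10.67 and 10.85 in AI+E2, against 10.11, 10.13 and 10.24 in AI and 10.44, 10.45 and 10.52 in VEH. It was higher by 0.59 in AI+E2 than in AI (SE 0.0659, adjusted p = 1.65e-05), higher by 0.28 in AI+E2 than in VEH and lower by 0.31 in AI than in VEH (adjusted p = 0.00357). The rise relative to VEH was lost without AI+E2 array 3 (adjusted p = 0.0518). None of these 3 groups overlapped for Prlr, and AI+E2, where Akr1c3 was highest, had the highest receptor transcript of the 3. On day 12 Prlr stood at 10.63, 10.57 and 10.74, which overlapped AI+E2 (AI+E2 higher by 0.10, adjusted p = 0.353). A part of Prlr in the level of Akr1c3 was not tested.

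Stat5b, a transducer of the prolactin signal, stood at 7.99, 7.95 and 8.04 in AI+E2 and at 8.02, 8.09 and 7.91 in AI, against 8.62, 8.35 and 8.39 in VEH. It fell by 0.46 in AI+E2 (adjusted p = 0.00374) and by 0.45 in AI (adjusted p = 0.00318) relative to VEH. Its partner Stat5a fell by 0.30 in AI+E2 and by 0.30 in AI versus VEH, and both calls were lost without VEH array 2. Stat5a and Stat5b thus lay higher in VEH, where Akr1c3 was lowest, than in both other day 16 groups. In VEH versus day 12, where Akr1c3 was 6.71-fold lower, neither passed, with differences of -0.015 for Stat5a (adjusted p = 0.927) and 0.22 for Stat5b (adjusted p = 0.174). A part of either in the level of Akr1c3 was not tested.

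The inhibitors of this signal moved in different directions. Socs3 fell by 0.59 in AI+E2 and by 0.49 in AI versus VEH, while Socs1 rose by 0.56 in AI+E2 versus VEH (adjusted p = 0.000814) and by 0.31 in AI versus VEH. Cish, a target of STAT5, rose by 0.41 in AI+E2 versus AI and by 0.44 in AI+E2 versus VEH. Jak2, the kinase bound to the receptor, rose by 0.34 in AI+E2 versus VEH and fell by 0.43 in VEH versus day 12. The smaller calls depended on single arrays, those of Cish on AI+E2 arrays 1 and 3, AI arrays 1 and 3 or VEH array 1, that of Jak2 relative to VEH on AI+E2 array 3 or VEH array 1 or 2 and that of Socs1 in AI on 5 of the 6 arrays compared, all but AI array 2.

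A list of 7 luteal genes that prolactin raises, which shares Prlr, Lhcgr and Cish with the list above, had 3 rises (8.65% of all genes) and 0 falls (4.13%) in AI+E2 versus AI and 3 rises (6.11%) and 0 falls (6.9%) in AI+E2 versus VEH. The 3 rises relative to VEH were those of the shared genes, so each was already counted above. Relative to AI, Prlr and Cish were already counted, and A2m was the rise added by this list. It had 0 rises (5.91%) and 3 falls (11%) in AI versus VEH and 1 rise (6.91%) and 1 fall (3.23%) in VEH versus day 12. A2m, the protease inhibitor alpha-2-macroglobulin, stood at 12.34, 12.25 and 12.26 in AI+E2, against 11.83, 11.83 and 11.85 in AI and 12.16, 12.33 and 12.19 in VEH. It rose by 0.45 in AI+E2 versus AI (adjusted p = 7.16e-05) and fell by 0.39 in AI versus VEH (adjusted p = 0.000179). Hsd17b7, whose protein also binds the prolactin receptor, fell by 0.21 in AI versus VEH, a call lost without AI array 1 or 3 or VEH array 2 or 3, and by 0.37 after quantile normalization was applied again. Medians over the 7 genes were 0.28, 0.22, -0.11 and -0.089 in the 4 comparisons, beside -0.022, -0.0064, 0.013 and -0.018 over all genes.

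Of 18 genes of PGF2α synthesis, signalling and response, 17 were measured. In AI+E2 versus AI 3 rose (8.65% of all genes) and 1 fell (4.13%), and in AI+E2 versus VEH 4 rose (6.11%) and 1 fell (6.9%). In each of these, 1 of the rises was that of Akr1b1, already counted among the AKR1 relatives. In AI versus VEH 2 rose (5.91%) and 0 fell (11%), and in VEH versus day 12 1 rose (6.91%) and 0 fell (3.23%). Their medians of 0.15, 0.16, -0.019 and 0.13 lay beside -0.022, -0.0064, 0.013 and -0.018 over all genes. Nr4a1, which encodes Nur77, stood at 8.52, 8.60 and 8.53 in AI+E2, against 7.17, 7.23 and 7.08 in AI, 7.46, 7.20 and 7.81 in VEH and 7.15, 7.49 and 6.90 on day 12. It rose by 1.39 in AI+E2 versus AI (SE 0.139, adjusted p = 5.58e-06) and by 1.06 in AI+E2 versus VEH (adjusted p = 9.28e-05). In AI versus VEH, where Akr1c3 was 3.09-fold higher, the difference of Nr4a1 was -0.33 (adjusted p = 0.128), and in VEH versus day 12 it was 0.31 (adjusted p = 0.191). A part of Nr4a1 in the level of Akr1c3 was not tested.

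Junb, a subunit of the AP-1 factor, stood at 8.78, 8.65 and 8.69 in AI+E2, against 8.11, 8.13 and 8.12 in AI, and rose by 0.58 (adjusted p = 0.000175). Against VEH its rise in AI+E2 was 0.50. Jun, another subunit, rose by 0.64 in AI+E2 and by 0.47 in AI versus VEH, while Jund fell by 0.31 in AI+E2 versus AI and by 0.28 in AI+E2 versus VEH, both lost without single arrays of either group. Ptgfr, the PGF2α receptor, passed in none of the 4 comparisons, with differences between -0.15 and 0.22. Ptges, a prostaglandin E synthase, rose by 0.85 in VEH versus day 12 (adjusted p = 6.31e-05), and Hpgd, which inactivates prostaglandins, by 0.51 in AI versus VEH. Nr4a2 and Nr4a3, the other members of the Nur77 family, and Sp1 passed in none.

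**Figure D4:**
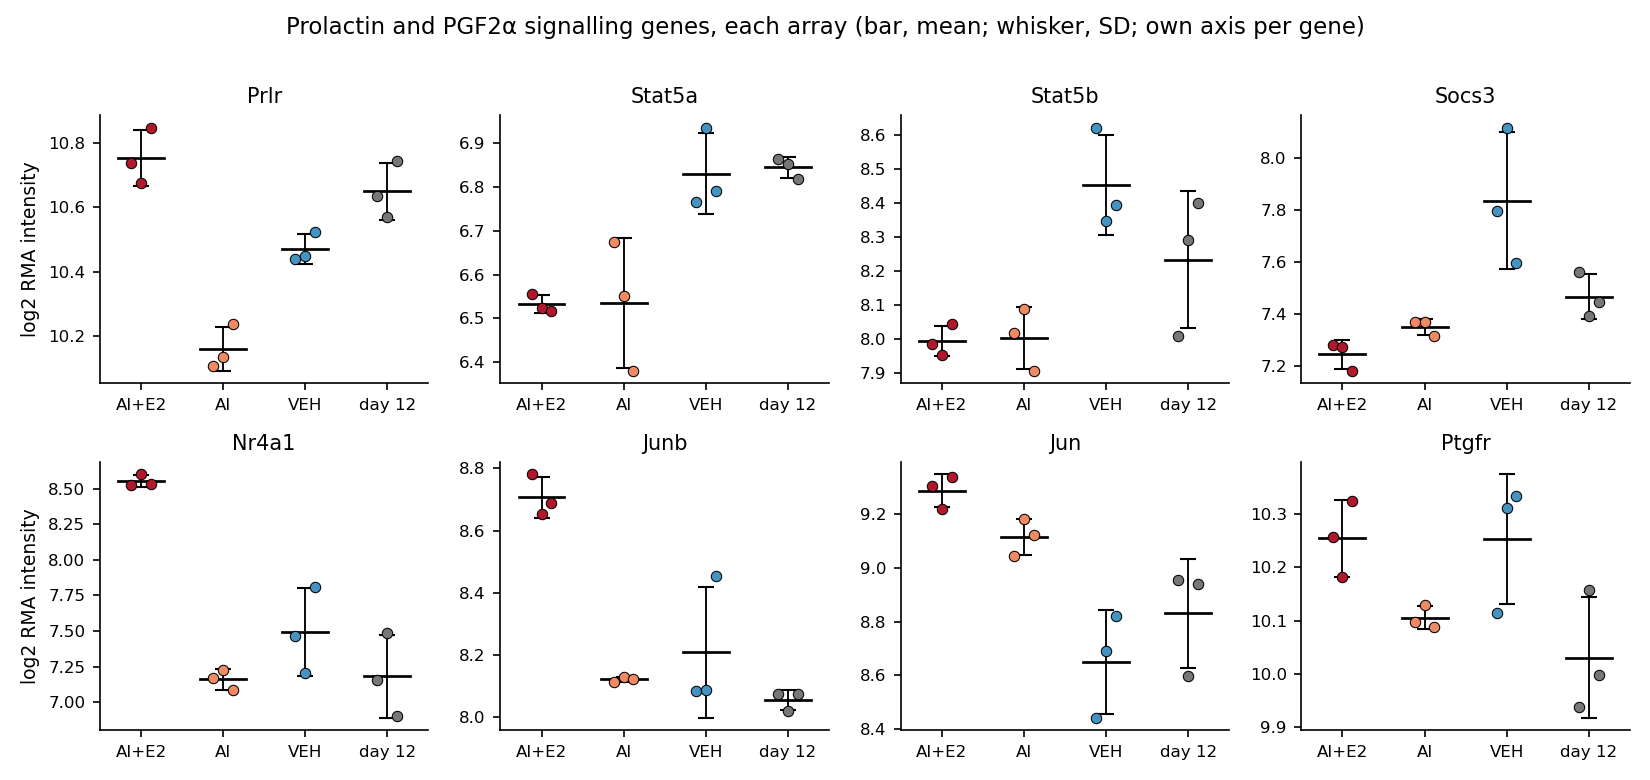
Levels (log2 RMA intensity, own axis per gene) of 8 genes of prolactin and PGF2α signalling on each array, by group, with a bar at the mean and a whisker of 1 SD (n = 3 rats). Nr4a1 and Junb stand apart in AI+E2, Prlr is lowest in AI, and Stat5a and Stat5b are higher in VEH than in AI+E2 and AI.

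Akr1c3 consumes the product of P4 synthesis, for which 9 of 13 listed genes were measured, and the others were not analysed here. In AI+E2 versus AI 1 rose (8.65% of all genes) and 2 fell (4.13%), and in AI+E2 versus VEH 1 rose (6.11%) and 2 fell (6.9%). In AI versus VEH 5 rose (5.91%) and 0 fell (11%), and in VEH versus day 12 0 rose (6.91%) and 3 fell (3.23%). Their medians of -0.14, 0.078, 0.21 and -0.056 lay beside -0.022, -0.0064, 0.013 and -0.018 over all genes. Fdx1, the ferredoxin that feeds electrons to the side-chain cleavage enzyme, stood at 11.30, 11.21 and 11.39 in AI+E2 and at 11.21, 11.24 and 11.28 in AI, against 10.06, 10.01 and 10.11 in VEH. It rose by 1.24 in AI+E2 (adjusted p = 2.25e-08) and by 1.18 in AI (adjusted p = 1.66e-08) relative to VEH, and fell by 0.60 in VEH versus day 12. With AI versus VEH, Hsd3b2, Scarb1, Star and Cyp11a1 rose by 0.36, 0.30, 0.21 and 0.21, and after quantile normalization was applied again the difference of Scarb1 was 0.17 and still called, while those of Star and Cyp11a1 were 0.039 and 0.025 and no longer called. The call of Cyp11a1 was also lost with AI and VEH fitted alone and with the array medians set equal. Without single arrays the calls of Hsd3b2 (AI 3 or VEH 1), Star (AI 1) and Cyp11a1 (AI 1 or 2 or VEH 1 or 3) were lost as well. The remaining calls were a rise of Tspo in AI+E2 versus AI (0.39, lost without any of 5 arrays, all but AI 3) and falls of Por and Stard3 in AI+E2 against both AI and VEH, between 0.32 and 0.47, and of Hsd3b2 (0.48) and the regulator Nr5a2 (0.27) in VEH versus day 12.

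Receptors for P4 were measured for 5 of 8 listed genes. The nuclear receptor Pgr passed in none of the 4 comparisons. Paqr7, a membrane P4 receptor, stood at 9.05, 9.04 and 9.14 in AI+E2, against 8.38, 8.44 and 8.32 in AI, and rose by 0.70 (adjusted p = 0.000553), and in AI versus VEH it fell by 0.50 (adjusted p = 0.00507), or by 0.33 without VEH array 1. Pgrmc1, a membrane heme protein linked to P4 action, fell by 0.28 in AI+E2 versus AI, by 0.23 in AI+E2 versus VEH, a call lost without AI+E2 array 1 or 3 or VEH array 1, and by 0.26 in VEH versus day 12. Pgrmc2 fell by 0.27 in AI+E2 versus VEH, a call lost without AI+E2 array 1 or 2 or VEH array 2 or 3. Of 6 estrogen receptors and estrogen-related receptors, 0 passed in the 3 comparisons of day 16 groups, where between 4.13% and 11% of all genes passed in a given direction, and Esr1 fell by 0.38 in VEH versus day 12, a call lost without VEH array 1 or 2 or day 12 array 2 or 3.

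Among 18 measured of 20 other steroid dehydrogenases and hydroxylases, 1 rose (8.65% of all genes) and 3 fell (4.13%) in AI+E2 versus AI, and 2 rose (6.11%) and 2 fell (6.9%) in AI+E2 versus VEH. With AI versus VEH 3 rose (5.91%) and 3 fell (11%), and in VEH versus day 12 2 rose (6.91%) and 3 fell (3.23%). Their medians of -0.051, 0.0099, 0.022 and -0.064 lay beside -0.022, -0.0064, 0.013 and -0.018 over all genes. Cyp17a1, which turns P4 towards androgens, stood at 7.40, 7.33 and 7.63 in AI+E2, against 10.86, 10.98 and 10.73 in AI, 6.27, 6.46 and 6.39 in VEH and 7.98, 7.70 and 7.95 on day 12. It fell by 3.41 in AI+E2 versus AI (adjusted p = 1.75e-11) and rose by 4.48 in AI versus VEH (adjusted p = 3.21e-13) and by 1.08 in AI+E2 versus VEH (adjusted p = 2e-06). Cyp17a1 and Akr1c3, both of which use P4, thus had differences of opposite sign when E2 was added to the inhibitor and of the same sign with the inhibitor alone and in VEH versus day 12, where Cyp17a1 fell by 1.50. Cyp1b1, an estrogen hydroxylase, rose by 2.26 in AI versus VEH and fell by 2.22 in AI+E2 versus AI.

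Markers of luteal cells were present on every array, with Star, Cyp11a1, Scarb1 and Lhcgr between 12.25 and 13.01. The mean level of the 8 measured luteal markers, which overlap the lists above, lay between 11.64 and 11.70 in AI+E2, 11.58 and 11.71 in AI, 11.26 and 11.44 in VEH and 11.39 and 11.66 on day 12. Of these markers, 1 rose (8.65% of all genes) and 0 fell (4.13%) in AI+E2 versus AI, and 3 rose (6.11%) and 0 fell (6.9%) in AI+E2 versus VEH. With the inhibitor alone versus VEH 4 rose (5.91%) and 1 fell (11%), and in VEH versus day 12 0 rose (6.91%) and 2 fell (3.23%). Of the 4 rises, those of Star and Cyp11a1 were no longer called after quantile normalization was applied again. Of 11 measured endothelial markers, 7 fell in AI+E2 (6.9% of all genes) and 9 in AI (11%) versus VEH, 10 rose in VEH versus day 12 (6.91%) and 1 rose in AI+E2 versus AI (8.65%), and their mean lay between 8.66 and 8.71 in AI+E2, 8.50 and 8.73 in AI, 9.06 and 9.07 in VEH and 8.58 and 8.78 on day 12. VEH was thus the group with the lowest Akr1c3 and the highest endothelial markers.

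Of 14 macrophage markers, 6 rose in AI+E2 (6.11% of all genes) and 4 in AI (5.91%) versus VEH and 2 rose (8.65%) and 1 fell (4.13%) in AI+E2 versus AI, with means between 8.05 and 8.13 in AI+E2, 7.94 and 8.07 in AI, 7.83 and 7.89 in VEH and 7.77 and 7.86 on day 12. Of 10 smooth muscle and pericyte markers, 3 fell in AI+E2 (6.9%) and 3 in AI (11%) versus VEH and 6 rose in VEH versus day 12 (6.91%), with means between 8.69 and 8.72 in AI+E2, 8.64 and 8.83 in AI, 8.83 and 9.14 in VEH and 8.52 and 8.60 on day 12. Of the 8 measured markers of granulosa cells and oocytes, 3 rose in AI+E2 versus VEH (6.11%), 2 in AI+E2 versus AI (8.65%) and 1 in AI versus VEH (5.91%), and 2 fell in VEH versus day 12 (3.23%), with means between 6.36 and 6.38 in AI+E2, 6.23 and 6.33 in AI, 6.14 and 6.16 in VEH and 6.25 and 6.33 on day 12. Red cell markers, 5 measured, had 2 falls in AI+E2 versus AI (4.13%), 3 in AI+E2 versus VEH (6.9%) and 1 rise (6.91%) and 1 fall (3.23%) in VEH versus day 12, with means between 7.04 and 7.10 in AI+E2, 7.50 and 7.73 in AI, 7.60 and 7.90 in VEH and 7.16 and 7.59 on day 12. Lists for oviduct epithelium (8 measured) and for decidua and placenta (9 measured) had 0 calls in the 4 comparisons. In these, between 3.23% and 11% of all genes passed in a given direction. Of 10 periovarian fat markers 1 fell in AI+E2 versus AI (4.13% of all genes). Array means of these 3 lists were low, between 5.695 and 6.161. The part of these cell types in the values of Akr1c3 was not tested, and in such whole tissue samples fewer cells of a type and less RNA per cell cannot be told apart.

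The genes whose pattern was most like that of Akr1c3 were sought among the 575 genes whose lowest and highest array differed by at least 1, by Pearson r over the 12 arrays, as a description without a test. The 5 highest were Epdr1 at 0.96, Clybl, an enzyme of citramalate breakdown in mitochondria, at 0.96, Aadat, an aminotransferase of lysine and kynurenine breakdown, at 0.88, Slc27a6, a fatty acid transport protein, at 0.88, and Cited1, a transcription coregulator, at 0.87. Epdr1 stood at 9.59, 9.53 and 9.62 in AI+E2, at 9.05, 8.97 and 9.06 in AI, at 8.60, 8.63 and 8.51 in VEH and at 9.27, 9.35 and 9.44 on day 12. It thus had the same order of groups as Akr1c3, also without overlap, with a difference of 1.00 between AI+E2 and VEH where that of Akr1c3 was 4.14.

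The 3 lowest were Entpd7, a nucleotidase, at -0.94, Prkcd, the protein kinase C delta, at -0.92, and Tmem204, a membrane protein, at -0.91. Prkcd stood at 8.29, 8.13 and 8.29 in AI+E2, at 9.54, 9.58 and 9.34 in AI, at 10.02, 10.35 and 10.01 in VEH and at 9.35, 9.42 and 9.37 on day 12. AI and day 12 overlapped for Prkcd, while AI+E2 lay lowest and VEH highest. Within groups, after each group mean was taken off, r to Akr1c3 was 0.0027 for Epdr1, 0.33 for Clybl and -0.056 for Prkcd, and -0.73 for Entpd7, so for the first 3 the likeness lay mostly between the groups. The 12 arrays share their groups and their normalization.

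**Figure D5:**
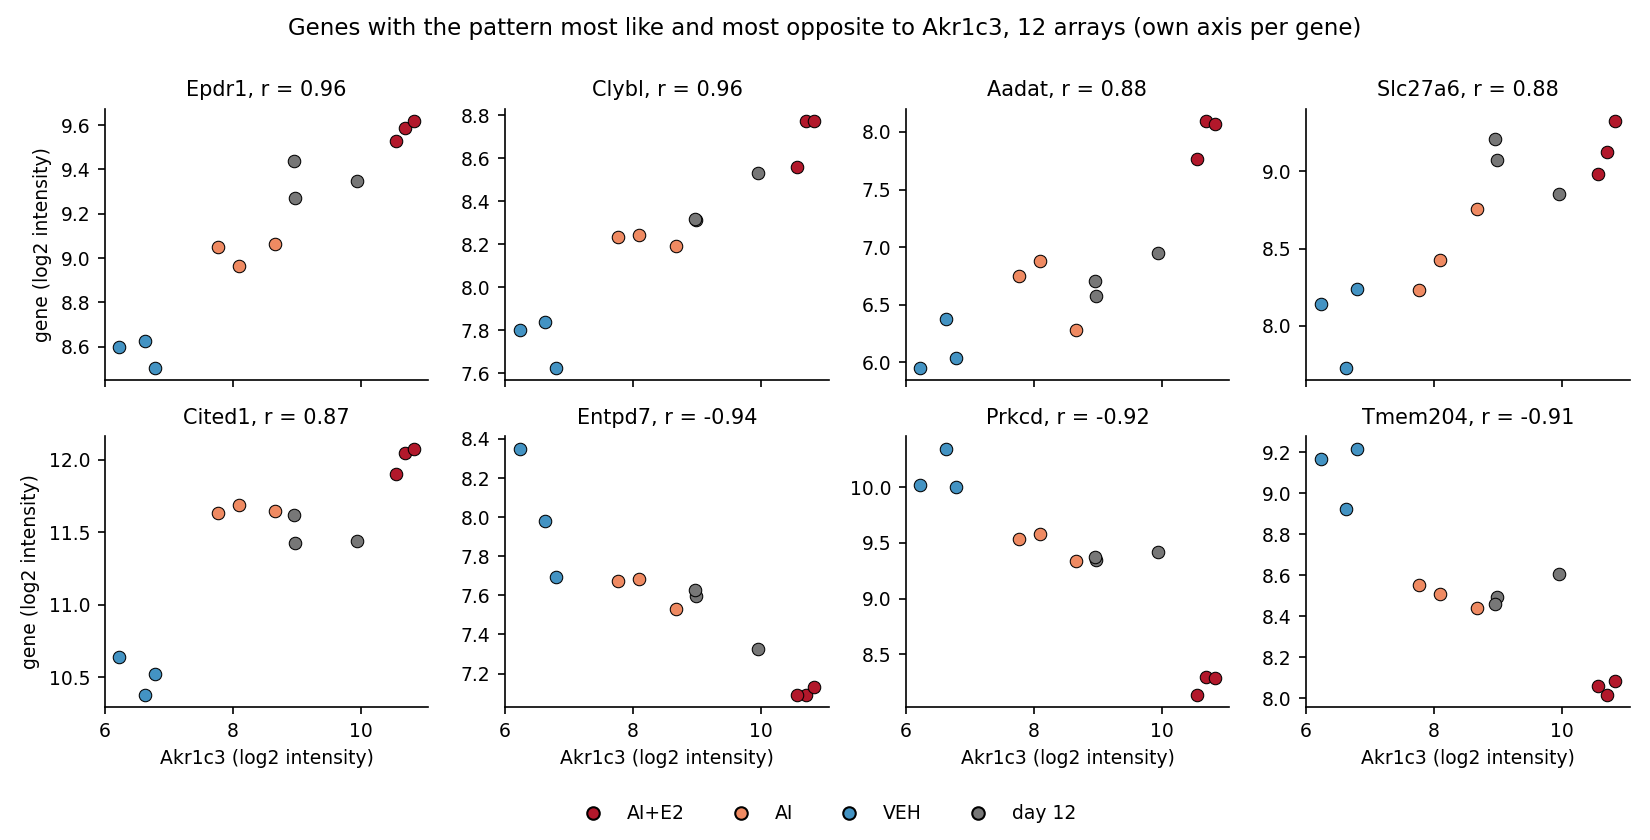
Level of the 5 genes most like and the 3 most unlike Akr1c3 (vertical axes, log2 RMA intensity, own axis per gene) against the level of Akr1c3 (horizontal axes) on the 12 arrays, coloured by group. The points fall into the 4 groups, with AI+E2 at the right and VEH at the left of each panel.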

How the data were processed

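Luteal RNA of 12 rats was hybridised to Affymetrix Rat Gene 1.0 ST arrays. RMA was run by the authors in R 2.12.2, per the submitters' processing notes, and the deposited table holds log2 values of 29214 probe sets. RMA can compress large differences and assumes arrays of like distribution, and array medians lay between 6.51 and 6.56. Within groups arrays correlated at 0.9919 to 0.9974 and between groups at 0.9816 to 0.9922, and 0 pairs were identical. Each array is a separate animal, and precision is limited by their number.

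Platform annotation gave 15310 probe sets 1 gene symbol, 323 several and 13581 none. Of 527 genes with more than 1 probe set the brightest was used, which left 14506 genes, with no filter on dim ones. The fit used limma 3.58.1 under R 4.3.3 (4 group means, 8 residual and 6.66 prior degrees of freedom, Benjamini-Hochberg adjustment over all genes), which was tested on simulated data. Motifs were searched and figures drawn in Python 3.11.15 with numpy 2.4.6, pandas 2.3.3 and matplotlib 3.10.9.

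The members and the lists were chosen with earlier results of these data known. Named genes were both members, every measured relative, up to 4 members of each other list with the smallest p in a comparison, and the 5 genes most like and 3 most unlike Akr1c3 over the arrays. With 3 arrays against 3 an exact permutation test of one gene cannot go below p = 0.1, so none was run. Alternatives were a fit of the compared groups alone, a replicate block, averaging the probe sets of a gene, all probe sets, quantile normalization applied again, equal array medians, filters on the dimmest 25% and 50% of genes, an intensity trend, the methods' t-test and each array left out. Replicate numbers did not pair the arrays, since same-numbered arrays of different groups deviated together with r between -0.486 and 0.339 (18 pairs).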

Additional observations from a re-analysis of the deposited data

How the results depend on the processing

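The differences of Akr1c3 kept their direction in every alternative, but most alternatives could not have reversed it. Its groups did not overlap, so leaving out an array cannot change a sign. Averaging probe sets, using all probe sets and the filters left its differences the same by construction, as its 1 probe set stayed in. Quantile normalization applied again and equal array medians could change them, and moved them by less than the spread within groups. With 1 array of either group left out, the difference lay between 3.98 and 4.26 for AI+E2 against VEH, 2.31 and 2.76 for AI+E2 against AI, 1.38 and 1.83 for AI against VEH, -2.91 and -2.42 for VEH against day 12, -1.36 and -0.79 for AI against day 12 and 1.23 and 1.73 for AI+E2 against day 12. Counts of called genes (1887, 1854, 2458 and 1471 in the first 4 of these comparisons) were 564, 758, 663 and 57 with the methods' t-test, a test of each gene on its own 6 arrays. VEH against day 12 gave 910 calls when those groups were fitted alone, and 954 higher and 743 lower after quantile normalization was applied again, against 1002 and 469. Leaving out 1 array gave 1252 to 1604, 1245 to 1784, 1817 to 2303 and 998 to 1436 calls, the lowest of the first without AI+E2 array 1. Calls among the 13 AKR1 relatives, 5, 7, 4 and 3 in these comparisons, were 0, 1, 0 and 0 with that t-test. In the first they were 3 without the dimmest 50% of genes, a filter that took out Akr1b7 and Akr1e2 themselves. In the second they were also 3 with that filter, which took out Akr1b7, Akr1b8, Akr1c19 and Akr1e2. For VEH against day 12 they were 1 with those groups fitted alone or without day 12 array 1 or 2 or VEH array 2. They were 2 there with a replicate block, with all probe sets or without VEH array 1. The same count of 2 came without the dimmest 50% of genes, where Akr1e2 was taken out. With that block, which these unpaired numbers do not call for, the counts over all genes were 1677, 1625, 2226 and 1265, the differences of Akr1c3 were the same by construction, and 0 of 12 arrays deviated most like arrays of its own number. Of 128 calls of single genes named by the rule, 0 reversed in any alternative, 32 held in all and 96 were lost with the t-test. Of the 96, 50 were lost with the t-test alone. Losses without some single array numbered 44, and losses with the block 12. Akr1e2, Prlr and Nr4a1 in AI+E2 versus AI held in all. Lost with the t-test alone were Akr1b7 in AI+E2 versus AI, Akr1c14, Prlr and Stat5b in AI versus VEH and Nr4a1 in AI+E2 versus VEH, among others. How much signal of a relative the Akr1c3 probe set carries could not be measured.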
